A study of Mus musculus with 8 samples.

Results

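Satellite cells, the resident stem cells of skeletal muscle, are commonly recognised by a small set of surface proteins and by factors that keep them out of the cell cycle. The set described here holds 10 genes, chosen by name from the 20976 genes of the deposited table: Cd34, Vcam1, Ncam1, Sdc3, Sdc4, Calcr, Cxcr4, Megf10, Chrdl2 and Foxo3. All 10 were present in the table, and 8 passed the filter on low values. Calcr and Chrdl2 did not pass, and are described by their values only.

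The cells had been purified by flow cytometry as muscle stem cells (MuSCs) from Chd4LoxP/LoxP mice and grown for a short time in medium with 20% serum and 5 ng/ml bFGF. They were then infected with adenovirus. The Cre group (4 libraries) received Cre recombinase, which deletes exons 12 to 21 of Chd4, a helicase and ATPase found in the nucleosome remodelling complex NuRD, and the GFP group (4 libraries) received a GFP virus and kept intact loxP-flanked alleles. Each group came from 4 mice. The labels used here state no strain background, age or sorting antibodies. Both groups had the loxP-flanked alleles, the culture and an adenovirus in common. Cre was not given to cells with an unflanked Chd4 gene, so an effect of Cre itself and of the loss of Chd4 cannot be told apart.

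In resting muscle the satellite cell sits between the fibre membrane and the basal lamina. Adhesion molecules and syndecans hold it there and present growth factors to its receptors, while calcitonin receptor signalling, Notch signalling and FoxO factors keep it quiescent. When the cell is activated or placed in culture it enters the cell cycle, Calcr is switched off, and myoblasts gain adhesion molecules such as NCAM as they prepare to fuse.

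Values are normalised reads, that is read counts scaled between libraries and rounded. The scaled totals lay between 27.9 and 28.9 M, and sequencing depth, as inferred from the steps between low values, between 23.3 and 38.0 M reads, so that 1 read was worth 0.741 to 1.2 normalised reads. Chd4 stood at 3686 to 5480 normalised reads in Cre and 15904 to 20121 in GFP, without overlap, which matches the group labels. Of the other satellite cell genes used as a check, Pax7 stood at 5390 to 6704 in GFP, Myod1 at 30708 to 40991 and Myf5 at 444 to 1816. Deviations from the group mean correlated between a Cre library and the GFP library of its number (r from 0.82 to 0.908 over 12910 genes). A paired model, which adds that number as a blocking factor, is therefore given beside the unpaired one. In it Myf5 fell (log2 change -0.57, adjusted p = 0.000124, unpaired 0.694) and Myod1 rose (0.20, adjusted p = 0.0425, unpaired 0.578), the latter lost without pair 1, 2 or 4.

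In the unpaired model 0 of the 8 tested members passed at an adjusted p under 0.05 (limma, Benjamini-Hochberg; 0 with voom), where 1.08% of all genes did (0.837% higher, 0.248% lower). At an unadjusted p under 0.05, 1 member was higher (Foxo3) and 1 lower (Cd34), where 16.7% of all genes passed (7.41% higher, 9.3% lower). The paired model called 5 of 8: Cd34 and Vcam1 fell, and Ncam1, Foxo3 and Megf10 rose. That model called 43.9% of all genes (22.2% higher, 21.7% lower), so the count by itself does not set the members apart. Groups did not overlap for 2 members, Cd34 and Foxo3, against 10.6% of all genes (4.41% higher, 6.17% lower). The 5 members called in the paired model moved one way in 4 of 4 pairs, which 55.5% of all genes also did. The median log2 change of the 8 tested members was 0.11, against -0.00 over all genes tested.

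**Figure D1:**
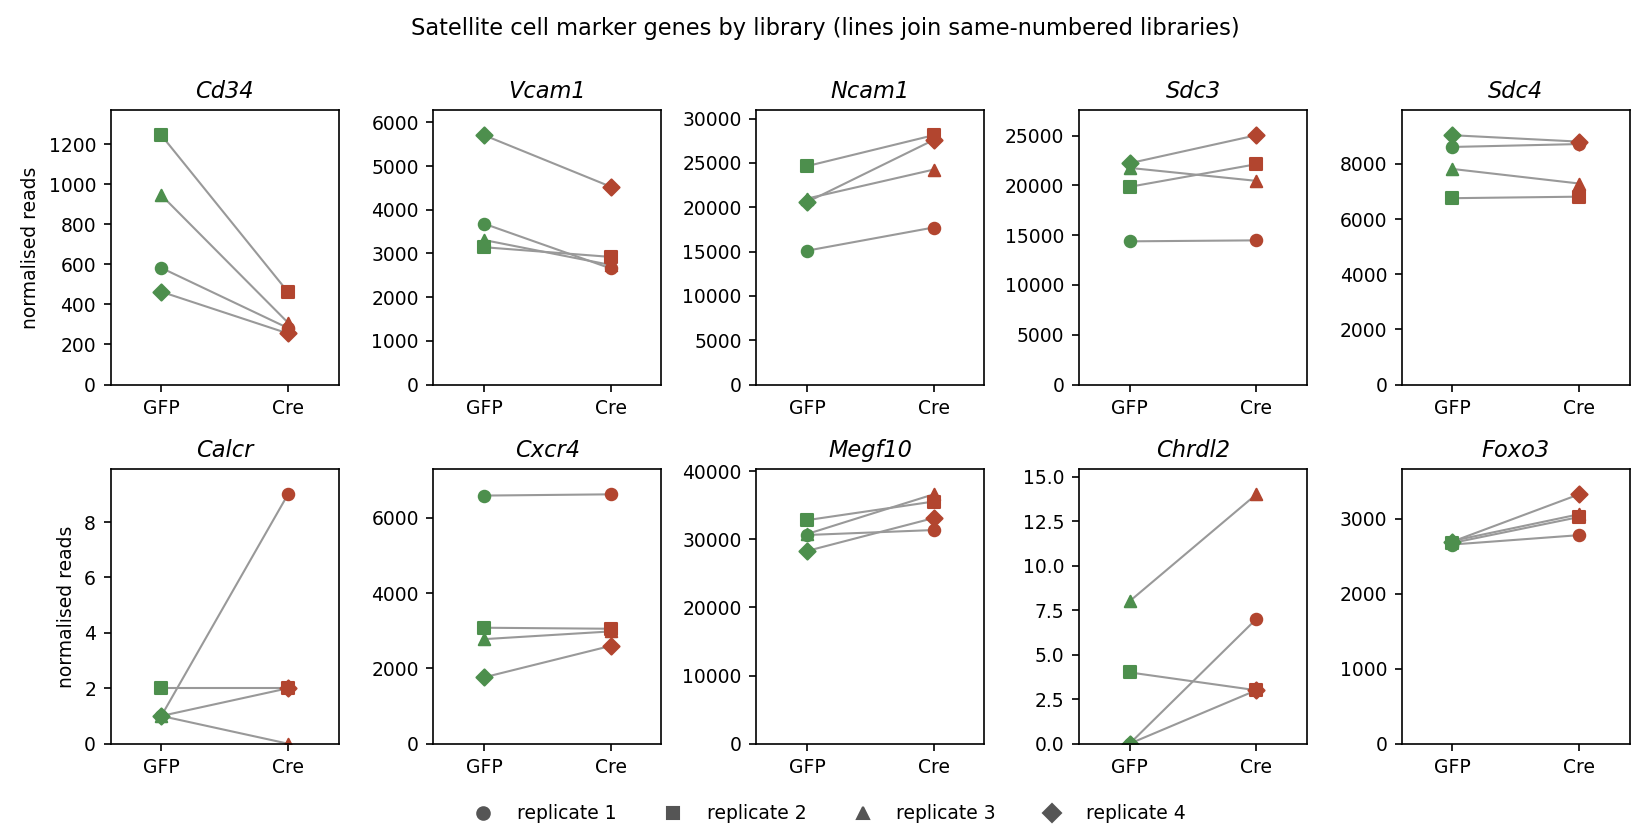
Normalised reads (linear axes from 0) of the 10 members in each GFP and Cre library, with lines joining libraries of the same replicate number. Every Cd34 line descends and every Foxo3 line ascends without overlap of the groups, while Calcr stays at or below 9 and Chrdl2 at or below 14 normalised reads.

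The stretches upstream of Cd34 and Foxo3 are shown because these are the only members whose groups did not overlap, one lower and one higher in Cre. RefSeq start sites on GRCm38.p6 were matched for 6 of the 10 members. Windows of 250 bases before each start were searched. RefSeq starts differ from the gene bounds of the deposited table: the last 2 bases of the Cd34 window and the last 60 of the Foxo3 window lie inside the gene as that table places it. Those bases are not printed. The rest is given on the gene's own strand, 5′ to 3′, with every CG dinucleotide in capitals. For Cd34 it is the 248 bases at chr1:194938571-194938818 on the plus strand, with 6 CG. For Foxo3 it is the 190 bases at chr10:42276756-42276945 on the minus strand, with 28 CG. The whole windows held 6 CG for Cd34, the median of all 32851 windows, and 31 for Foxo3, a number that 95.4% of windows do not exceed.
Cd34: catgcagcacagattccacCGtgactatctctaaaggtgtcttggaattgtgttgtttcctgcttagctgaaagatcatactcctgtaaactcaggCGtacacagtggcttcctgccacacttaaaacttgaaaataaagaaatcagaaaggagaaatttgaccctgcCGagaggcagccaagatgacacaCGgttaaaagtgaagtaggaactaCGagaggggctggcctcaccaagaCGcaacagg
Foxo3: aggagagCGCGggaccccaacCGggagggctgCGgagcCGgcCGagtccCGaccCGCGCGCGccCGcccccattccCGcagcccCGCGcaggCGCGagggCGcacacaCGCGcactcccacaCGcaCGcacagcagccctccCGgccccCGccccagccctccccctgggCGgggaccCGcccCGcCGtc
At least 1 CG was present in 92.1% of all windows. The other matched windows held 32 CG for Sdc3, 19 each for Sdc4 and Cxcr4, and 24 and 2 for the start sites of Calcr, the first of them wholly inside the gene's bounds. The E-box, spelled CANNTG and read the same on both strands, is the motif bound by myogenic factors such as MyoD. It was found in 1 of the 7 member windows, that of the Calcr start with 2 CG, and in 66.2% of all windows. These matches describe the letters only.

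Cd34 encodes a sialomucin of the cell surface, used to sort satellite cells and also present on endothelial, fibro-adipogenic and blood-forming cells. On GRCm38 it spans 194938819 to 194961279 of chromosome 1 (plus strand). Cre replicates 1 to 4 gave 282, 462, 309 and 255 normalised reads, and GFP replicates 1 to 4 gave 582, 1244, 945 and 463. All Cre libraries lay below all GFP libraries, though barely, since the highest Cre value (462) was 1 normalised read under the lowest GFP value (463). Within pairs 1 to 4 the Cre level was 48.5, 37.1, 32.7 and 55.1% of the GFP level. The fitted log2 change was -1.23 ± 0.33 (SE; limma, adjusted p = 0.123), with a 95% confidence interval from 25.3 to 71.5% of the GFP level. In the paired model it fell (SE 0.11, adjusted p = 2.45e-05, interval 35.8 to 50.5% of GFP), and it kept that call in all 12 paired alternatives (adjusted p up to 0.000688). Cd34 was also the most variable tested member between GFP libraries after Cxcr4, with a highest value 2.69 times the lowest. The gene Gm16897 overlaps it on the opposite strand, with 2 to 32 normalised reads. In bulk RNA, fewer cells that carry a marker and less RNA per cell cannot be told apart.

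Podxl, which encodes podocalyxin, and Podxl2, which encodes endoglycan, make up the CD34 family together with Cd34. Podxl was at 830 ± 554.9 with Cre against 738.2 ± 571.1 with GFP (SD, n = 4 each), a log2 change of 0.23 (adjusted p = 0.882, paired 0.0197). Podxl2 stood at 150 ± 15.3 and 117.8 ± 31.3, a change of 0.37 (adjusted p = 0.389, paired 0.0466). Without Cre library 1 the unpaired change of Podxl became -0.17. Both paired calls were lost when single pairs were left out, with adjusted p up to 0.103 for Podxl and 0.207 for Podxl2. Crkl, an adaptor protein that binds CD34, differed by -0.09 (adjusted p = 0.599, paired 0.169). By the shape of its profile over the 8 libraries, Cd34 lay closest to Gnao1, Fhdc1, Gm45716, Bola1 and C530008M17Rik among 10609 genes with a mean of at least 5 CPM. Their root mean square differences from it, on centred log2 values, were 0.283, 0.306, 0.385, 0.414 and 0.431, and their own log2 changes were -0.95, -1.49, -0.67, -0.64 and -0.83. They were picked for this likeness, so their p-values are descriptions: Fhdc1 passed unpaired (adjusted p = 0.0421), the others did not (0.13 to 0.257), and all 5 passed paired (up to 0.000682).

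Vcam1 encodes an immunoglobulin-type adhesion molecule that is a second sorting marker of satellite cells. It lies on chromosome 3 at 116109949 to 116129688, minus strand. In normalised reads, Cre replicates 1 to 4 gave 2658, 2921, 2736 and 4528, and GFP replicates 1 to 4 gave 3681, 3143, 3308 and 5706. Library 4 was highest in both groups, and the groups overlapped because Cre library 4 exceeded 3 of the GFP libraries. Each Cre library lay below its own partner, at 72.2, 92.9, 82.7 and 79.4% of GFP in pairs 1 to 4. The log2 change was -0.30 ± 0.23 (SE; limma, adjusted p = 0.574), and in the paired model it fell (adjusted p = 0.0019, interval 74.7 to 88.8% of GFP), with the call kept in 12 of 12 paired alternatives. Itga4, the alpha subunit of the integrin that binds VCAM1, was at 524 ± 147.3 with Cre against 316.5 ± 109.1 with GFP (SD, n = 4 each), a log2 change of 0.74 (adjusted p = 0.239, paired 0.000325).

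The balance between both sorting markers was compared within each library, which removes any scaling. The log2 ratio of Vcam1 to Cd34 was 3.23, 2.66, 3.14 and 4.15 over Cre replicates 1 to 4, with 2.66, 1.34, 1.81 and 3.62 over the GFP replicates. It was higher in Cre in 4 of 4 pairs, by 0.94 on average, but the groups overlapped (exact two-sided permutation test, p = 0.2, adjusted over 2 ratios 0.4). Within pairs the exact sign-flip test gave p = 0.125, the smallest that 4 pairs allow.

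Ncam1 encodes the neural cell adhesion molecule, which is carried by satellite cells and increases on fusing myoblasts. It lies on chromosome 9 at 49502136 to 49798925, minus strand. Cre replicates 1 to 4 gave 17713, 28119, 24241 and 27580, and GFP replicates 1 to 4 gave 15097, 24633, 20972 and 20572. Library 1 was lowest in both groups, and the groups overlapped. Within pairs Cre reached 117.3, 114.2, 115.6 and 134.1% of GFP, a narrow range for the first 3 pairs. The log2 change was 0.26 ± 0.19 (SE; limma, adjusted p = 0.539), and in the paired model it rose (adjusted p = 0.00181, interval 111.2 to 129.6% of GFP), a call kept in 12 of 12 paired alternatives. The enzymes that add polysialic acid to NCAM, St8sia2 and St8sia4, were higher in 4 of 4 pairs. St8sia2 averaged 14287.2 ± 2879.7 with Cre and 10775.8 ± 2709.4 with GFP (log2 change 0.42, adjusted p = 0.389, paired 9.56e-05). St8sia4 had a log2 change of 0.76 (adjusted p = 0.308, paired 1.72e-05). Gm11149 overlaps Ncam1 on the opposite strand with 10 to 19 normalised reads.

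**Figure D2:**
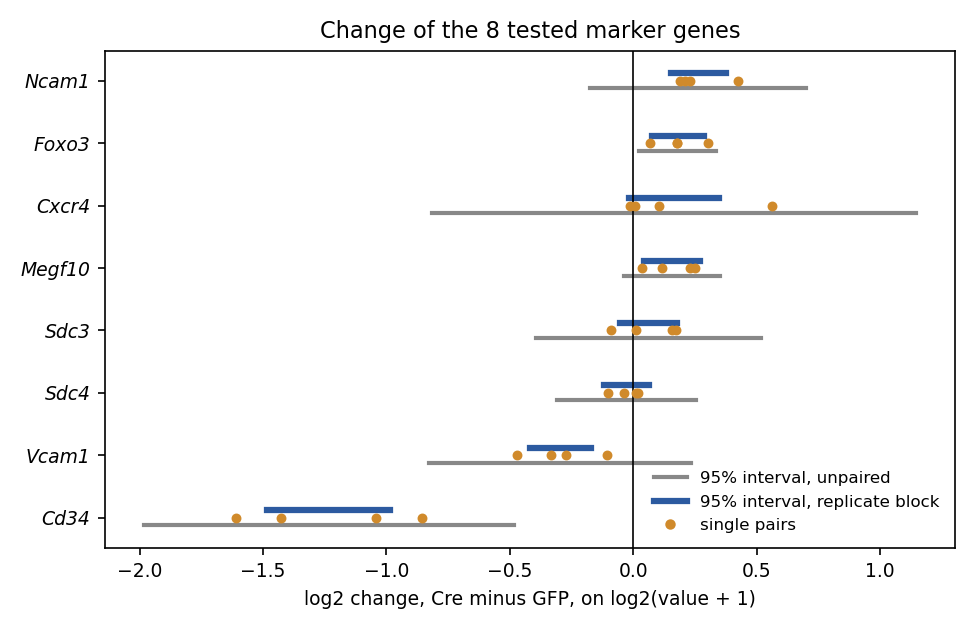
Log2 change (Cre minus GFP, on log2(value + 1)) of the 8 tested members, with 95% confidence intervals of the unpaired model in grey and of the paired model in blue, and the 4 single pairs as points. Cd34 lies near -1.23 with all pairs below 0, while the paired intervals of Sdc3, Sdc4 and Cxcr4 cross 0.

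The syndecans are transmembrane proteoglycans whose heparan sulfate chains bind FGF and HGF. Sdc4 differed least among the tested members. Cre replicates 1 to 4 gave 8722, 6814, 7291 and 8810, and GFP replicates 1 to 4 gave 8617, 6759, 7819 and 9042, with 2 pairs higher and 2 lower. Its log2 change was -0.03 ± 0.12 (SE; limma, adjusted p = 0.946, paired 0.621), and the paired interval ran from 92.2 to 104.4% of the GFP level. In the case of Sdc3, Cre replicates 1 to 4 gave 14479, 22124, 20454 and 25034, and GFP replicates 1 to 4 gave 14381, 19856, 21754 and 22224. Library 1 was again lowest in both groups. The log2 change of Sdc3 was 0.06 ± 0.20 (adjusted p = 0.917, paired 0.365, paired interval 96.4 to 113.1% of GFP). The sign of both changes turned when some single libraries were left out, from -0.11 to 0.04 for Sdc4 and from -0.08 to 0.22 for Sdc3.

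Within libraries the log2 ratio of Sdc4 to Sdc3 was -0.73, -1.70, -1.49 and -1.51 over Cre replicates 1 to 4, with -0.74, -1.56, -1.48 and -1.30 over the GFP replicates. The difference of -0.09 did not exceed the spread between libraries (exact two-sided permutation test, p = 0.657, adjusted over 2 ratios 0.657), and the exact sign-flip test over 4 pairs gave p = 0.25. Library 1 of both groups stood apart from the others by more than any Cre and GFP partners differed. Of the other syndecan and glypican genes, 6 were tested and 0 passed unpaired (1 lower at an unadjusted p under 0.05). Of these, 3 fell in the paired model, which called 21.7% of all genes lower. In that model Sdc2 fell, from 7072 ± 380.5 to 5654.5 ± 171.3 without overlap (log2 change -0.32 ± 0.06, unpaired adjusted p = 0.0592, paired 0.000381). Sdc1 differed by 0.11 (adjusted p = 0.795, paired 0.168) and Gpc4 by -0.30 (adjusted p = 0.733, paired 0.00491).

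Calcr, the calcitonin receptor, is a defining gene of quiescent satellite cells. It lay near the floor of detection in these cultures: Cre replicates 1 to 4 gave 9, 2, 0 and 2 normalised reads, and GFP replicates 1 to 4 gave 1, 2, 1 and 1. No library reached 1 CPM (the highest was 0.316 CPM), so the gene was not tested, and values this low differ by a few reads only. Its relative Calcrl, which forms the receptor for CGRP and adrenomedullin, was well above it, with 534 to 1391 in the Cre group and 345 to 1044 in the GFP group (log2 change 0.64, adjusted p = 0.473, paired 0.000609). The RAMP proteins alter the ligand choice of both receptors. Ramp3 stood at 394 to 963 in Cre and 196 to 359 in GFP, without overlap (log2 change 1.17 ± 0.31, adjusted p = 0.121, paired 2.8e-05). Ramp1 stood at 18 to 43 and 40 to 58, a change of -0.74 (adjusted p = 0.32, paired 0.0175, lost without pair 4 at 0.0908).

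Cxcr4, the receptor for the chemokine CXCL12, differed far more between replicate numbers than between viruses. Cre replicates 1 to 4 gave 6624, 3053, 2982 and 2598, and GFP replicates 1 to 4 gave 6591, 3080, 2777 and 1762. Library 1 was highest in both groups, and GFP library 1 reached 3.74 times GFP library 4. Cre stood at 100.5, 99.1, 107.4 and 147.4% of GFP in pairs 1 to 4, with the widest gap in pair 4. The log2 change was 0.16 ± 0.43 (SE; limma, adjusted p = 0.896), with an interval from 56.8 to 221.2% of GFP, and the paired model did not call it (adjusted p = 0.131, interval 98.8 to 127.1%). Without Cre library 1 the unpaired change became -0.14, and without pair 4 the paired change was 0.03. Cxcl12 itself averaged 7329.5 ± 2440.4 with Cre and 8907.8 ± 2126.6 with GFP (log2 change -0.33, adjusted p = 0.647, paired 0.00696), and Ackr3, the atypical CXCL12 receptor, differed by 0.04 (adjusted p = 0.95, paired 0.476).

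Megf10 encodes a receptor with EGF-like repeats that favours proliferation of satellite cells. Cre replicates 1 to 4 gave 31348, 35528, 36588 and 33101, and GFP replicates 1 to 4 gave 30619, 32797, 30754 and 28269. The groups overlapped, and each Cre library exceeded its partner, at 102.4, 108.3, 119 and 117.1% of GFP. The log2 change of 0.16 ± 0.08 (SE; limma) did not pass unpaired (adjusted p = 0.403) and passed paired (adjusted p = 0.0282). Leaving out pair 2, 3 or 4 ended that call (adjusted p up to 0.105). The related gene Pear1 rose from 128 ± 24 to 342.2 ± 58.5 without overlap (log2 change 1.42 ± 0.19, adjusted p = 0.0198, paired 2.15e-05). The unpaired call of Pear1 was lost without Cre library 2, 3 or 4 or GFP library 2 or 3 (adjusted p up to 0.0851). Megf11, a closer relative at 36 to 44 in Cre and 24 to 27 in GFP, had a change of 0.60 (adjusted p = 0.195, paired 0.0273, lost when any 1 pair was left out).

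Chrdl2, a secreted antagonist of BMP ligands, was also near 0, where Cre replicates 1 to 4 gave 7, 3, 14 and 3 normalised reads and GFP replicates 1 to 4 gave 0, 4, 8 and 0. Library 3 was highest in both groups, and the groups overlapped. With no filter on low values the log2 change was 1.35 ± 0.82 (limma, adjusted p = 0.536, paired 0.104), and that of Calcr was 0.48 ± 0.64 (adjusted p = 0.83, paired 0.608). Neither passed in either model.

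Foxo3 encodes a forkhead transcription factor that sustains quiescence and is held in the cytoplasm when growth factors signal. It lies on chromosome 10 at 42181841 to 42276755, minus strand. In normalised reads, Cre replicates 1 to 4 gave 2784, 3026, 3063 and 3329, and GFP replicates 1 to 4 gave 2659, 2680, 2707 and 2698. The GFP libraries lay within 1.02-fold of each other, and all Cre libraries lay above them, at 104.7, 112.9, 113.2 and 123.4% of GFP in pairs 1 to 4. The gap between the groups was small, with the lowest Cre value at 2784 and the highest GFP value at 2707. The log2 change was 0.18 ± 0.07 (SE; limma, adjusted p = 0.24), and in the paired model it rose (adjusted p = 0.0113, interval 105.3 to 122% of GFP). That call was kept in 11 of 12 paired alternatives and lost without pair 4 (adjusted p = 0.0635). Foxo1 and Foxo4, which encode other FoxO factors, had log2 changes of 0.13 and 0.12 (adjusted p = 0.459 and 0.723, paired 0.0723 and 0.0514).

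In the paired model, genes that FoxO factors are known to activate were called in both directions. So were genes over the whole table (43.9% called, 22.2% higher, 21.7% lower), so the counts below do not set this list apart. Of 12 tested, 0 passed unpaired (limma; 0 also at an unadjusted p under 0.05), and in the paired model 5 rose, 1 fell and 6 were not called, with a median log2 change of 0.13 (all genes -0.00). Ccng2, a cyclin that restrains the cell cycle, rose in the paired model by 0.37 (adjusted p = 0.0008, unpaired 0.329), and the repressor Bcl6 by 0.26 (adjusted p = 0.00543, unpaired 0.409). Fbxo32, the ubiquitin ligase atrogin-1, fell by 0.33 in the paired model (adjusted p = 0.00103, unpaired 0.41).

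Compared per kilobase of exon, the members spanned a wide range of levels. In GFP the order was Megf10 at 3966 ± 239.9, Sdc3 at 3264.9 ± 600.6, Sdc4 at 3164.2 ± 394.3, Ncam1 at 2345.2 ± 453.8 and Cxcr4 at 1964.9 ± 1163 normalised reads per kb (SD, n = 4). Vcam1 at 446.4 ± 133.7 and Foxo3 at 354.8 ± 2.8 followed, then Cd34 at 110.9 ± 48.8, Chrdl2 at 0.82 and Calcr at 0.32. Among the first 5, the GFP ranges of neighbours in this order overlapped, as did those of Vcam1 with Foxo3 and of Chrdl2 with Calcr. Cxcr4 exceeded Vcam1, Foxo3 exceeded Cd34 and Cd34 exceeded Chrdl2 in 8 of 8 libraries. In Cre the mean level of Foxo3 (402.9 ± 29.5) was above that of Vcam1 (362 ± 99.8), with overlapping ranges. These levels divide by the union of annotated exons, 7.29 kb for Cd34 and 1.81 kb for Cxcr4, and therefore depend on which transcripts the cells used.

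**Figure D3:**
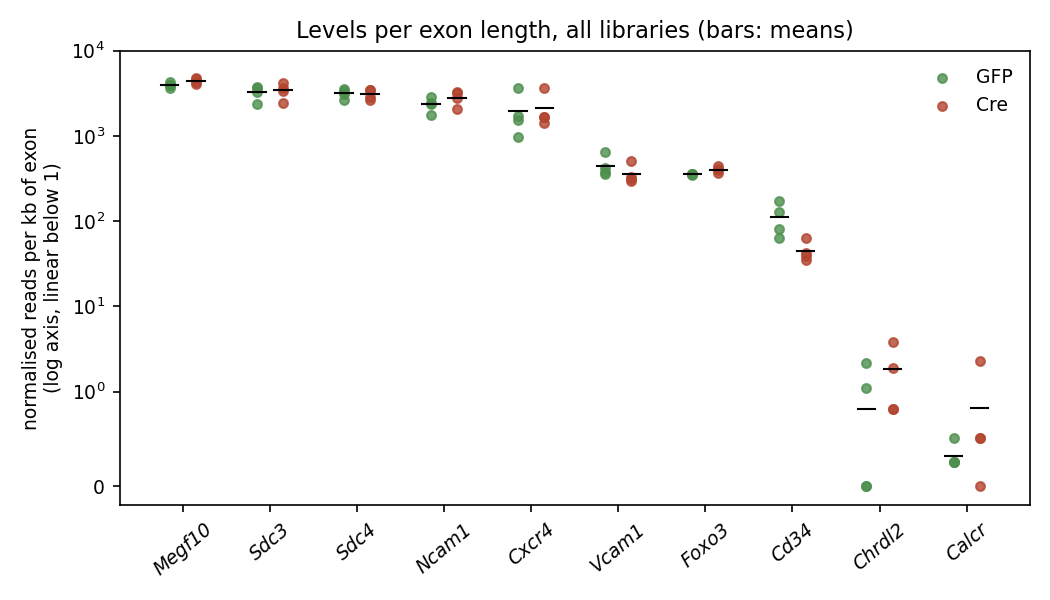
Normalised reads per kb of exon (log axis, linear below 1) of the 10 members in the GFP and Cre libraries, with bars for the group means. Megf10, Sdc3, Sdc4, Ncam1 and Cxcr4 lie highest, and Chrdl2 and Calcr lie below 4 in every library.

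Of the 108 tested genes in the related lists, limma called 3 unpaired (Pear1, Ly6a and Rgs5), and voom called these and Sdc2. The paired counts below stand beside 43.9% of all genes called in that model (22.2% higher, 21.7% lower). Of 20 partners of the members (ligands, co-receptors, modifying enzymes and relatives), 17 were tested, 1 rose unpaired (Pear1), and in the paired model 8 rose, 3 fell and 6 were not called (median 0.11). Of 13 further satellite cell surface genes, 0 passed unpaired (with no adjustment, 1 higher and 1 lower), and in the paired model 4 rose, 1 fell and 8 were not called (median log2 change 0.06). The tetraspanins Cd9 and Cd82 rose in the paired model by 0.37 (adjusted p = 0.000191, unpaired 0.249) and 0.25 (adjusted p = 0.00729, unpaired 0.45). Met, the HGF receptor, fell by 0.42 in that model (adjusted p = 0.000124, unpaired 0.257). Of 18 further quiescence genes, 0 passed unpaired, 5 were higher with no adjustment of p, and with pairing 11 rose and 2 fell (median 0.31). Tek, the angiopoietin receptor, averaged 209.2 ± 87.1 with Cre and 77.5 ± 34.7 with GFP (log2 change 1.46, adjusted p = 0.175, paired 3.28e-05). Cdkn1c, the cyclin-dependent kinase inhibitor p57, stood at 94.8 ± 21.9 and 45 ± 16.4 without overlap (change 1.104, adjusted p = 0.145, paired 0.00197). Hey1, a Notch target, had a change of 0.85 (adjusted p = 0.193, paired 0.000142). Pax7, the lineage factor of satellite cells, had a change of -0.14 (adjusted p = 0.641, paired 0.0354, lost without pair 1, 2 or 3).

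Markers of proliferation and differentiation were examined beside the members. Over all genes the paired model called 22.2% higher and 21.7% lower. Of 10 activation and proliferation genes, 0 passed unpaired (4 lower at an unadjusted p under 0.05), and in the paired model 8 fell and 2 rose (median -0.66). Mcm4, Pcna and Ccna2 fell in the paired model, with log2 changes of -0.59, -0.68 and -0.96 (adjusted p = 0.0986, 0.123 and 0.246, paired up to 3.2e-05). Of 12 differentiation genes, 0 passed unpaired (1 higher at an unadjusted p under 0.05) and 12 rose in the paired model (median 0.39), with changes of 0.26 for Chrng, 0.70 for Tnnt1 and 0.46 for Myog (adjusted p = 0.151, 0.466 and 0.586, paired up to 0.00228). Their part in the changes of Cd34, Vcam1 and Ncam1 was not tested.

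**Figure D4:**
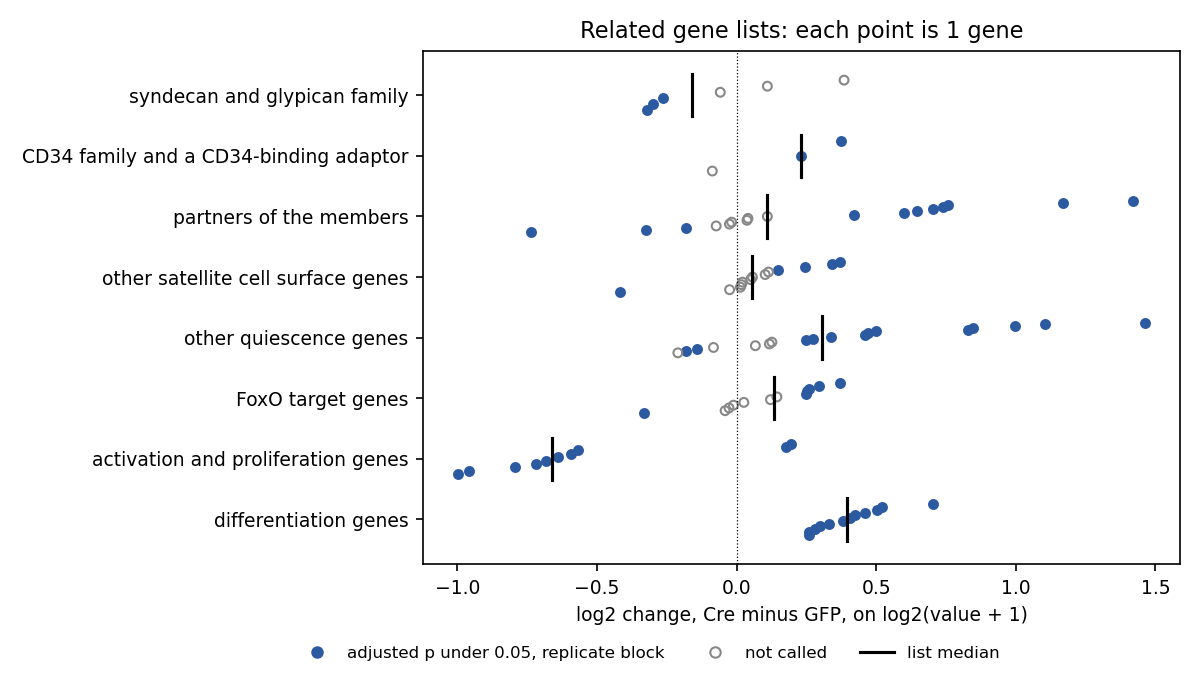
Log2 change (Cre minus GFP) of each tested gene of 8 related lists, filled where the paired model called it, with a bar at each list's median. Activation and proliferation genes have a median of -0.66 and differentiation genes of 0.39. Other satellite cell surface genes have a median of 0.06, and syndecans and glypicans of -0.16, with 3 paired calls lower and 0 higher.

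Since Cd34 and Vcam1 also mark other cells of muscle, markers of those cells were examined, 28 of 38 of which were analysed here. Summed endothelial markers reached 278 to 354 normalised reads in GFP and 346 to 590 in Cre (6 of 8 analysed), with Cldn5 at 0 to 5 and Cdh5 at 1 to 9 in any library. Fibro-adipogenic markers summed to 455 to 1424 in GFP and 918 to 1824 in Cre (6 of 8), with Dcn at 1 to 22. Blood cell markers summed to 51 to 278 and 122 to 455 (3 of 8), with Itgam at 0 to 7. Schwann and glial markers summed to 301 to 492 and 338 to 550 (5 of 6). Pericyte and smooth muscle markers summed to 26066 to 48273 in GFP and 58807 to 91914 in Cre (8 of 8), chiefly Acta2 and Rgs5, with Kcnj8 at 0 to 11 and Myh11 at 2 to 9. No analysed marker was at 0 in all libraries. Both ends of each summed range were higher in Cre, the opposite direction to Cd34 and Vcam1; their part in either result was not tested. Of the 28 analysed markers 17 were tested, and 2 passed unpaired, both higher: Ly6a, which encodes Sca-1, and Rgs5, with log2 changes of 2.35 and 2.08 (adjusted p = 0.0164 and 0.0277). Leaving out single libraries ended the call of Ly6a in 4 of 8 cases and of Rgs5 in 7 of 8 (adjusted p up to 0.0727 and 0.106). In the paired model 10 of the 17 rose and 0 fell, 8 of them called only there, where 22.2% of all genes were called higher and 21.7% lower. Mcam, a pericyte and endothelial adhesion molecule, rose by 1.20 (paired adjusted p = 4.48e-07, unpaired 0.118), Ngfr by 1.13 (0.00014, unpaired 0.318) and Cd68 by 1.00 (0.000369, unpaired 0.535). Egfl7 rose by 0.48 (0.0093, unpaired 0.193), Smoc2 by 0.38 (0.00349, unpaired 0.83) and Abcc9, named only to complete the count, by 0.37 (0.00669, unpaired 0.809). Col15a1 rose by 0.89 (0.016, unpaired 0.643; lost without pair 3) and Cspg4 by 0.23 (0.0263, unpaired 0.436; lost without pair 1 or 4).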

How the data were processed

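The authors deposited 1 table of RNA-seq values for 8 libraries, treated here as a score: read counts scaled between libraries and rounded, a reading of the values and not of a label. STAR 2.5.3a, featureCounts 1.5.3 of Subread and DESeq are the tools, and mm10 and GRCm38 the builds, that appear per the submitters' processing notes; the sources used here give no settings, annotation or strand use, so reads of overlapping genes cannot be told apart. Libraries were stranded, per the labels' protocols.

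Genes with at least 1 CPM in at least 4 libraries were kept (12910 of 20976). log2(value + 1), a scale that understates low genes' changes, was modelled by limma 3.58.1 (trend option, R 4.3.3). Two-sided p-values were adjusted by Benjamini-Hochberg over all kept genes, with a threshold of 0.05; intervals are at 95%. The design had kept a count test for raw counts, which the values are not. The model was tested on simulated data. Tables were made in Python 3.11.15. Replicate numbers came from the titles. The correlation of deviations was 0.82 to 0.908 for libraries sharing a number and -0.597 to 0.477 for the rest, so the numbers were taken to pair them, on the values alone. The design text gives 4 mice per condition but not whether a number marks 1 mouse. Exon lengths came from GENCODE M21 and upstream sequences from RefSeq.

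Members and lists were chosen with earlier results of these data known. Named were the members, Chd4, up to 3 genes per list with the smallest unpaired p, and the 5 nearest profiles to the member with the largest change. Itga4, Cxcl12, Ackr3, Calcrl, Ramp1, St8sia2, St8sia4, Pax7, Myf5, Myod1, Foxo1, Foxo4 and Sdc1 were added for their role after values were seen. The change of 1 gene that the rule names is not reported here.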

Additional observations from a re-analysis of the deposited data

Results flagged for a closer look

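Among 136 groups of 4 libraries, from the members and the other named genes, 9 held 1 library far from the other 3 by Dixon's criterion. Chance flags about 1 in 20 groups. Among members, Cxcr4 in Cre library 1 stood at 6624 against 2598 to 3053 in the others. Vcam1 in Cre library 4 stood at 4528 against 2658 to 2921. Calcr in GFP library 2 stood at 2 against 1 in each of the others, a difference of about 1 read. Podxl stood at 1652 in Cre library 1 and at 1587 in GFP library 1, against 437 to 644 and 369 to 556. Myf5 stood at 1262 in Cre library 4 and at 1816 in GFP library 4, against 298 to 347 and 444 to 575. Pear1 stood at 92 in GFP library 4 against 139 to 141, and Vwf at 355 in Cre library 1 against 93 to 136. For Podxl and Myf5 the same replicate number stood apart in both groups.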

How the results depend on the processing

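Without the replicate block 0 of 8 tested members were called in the main model or in any of its 16 alternatives. With the block 5 were called, also 5 with voom and the block, and 5, 4, 4 and 3 without pair 1, 2, 3 or 4. Cd34, Vcam1 and Ncam1 kept their paired calls in 12 of 12 alternatives to the paired model, 7 of which were added after seeing the data, Foxo3 in 11 and Megf10 in 9. Over all genes, 140 were called unpaired, 5665 with the block, 5811 with voom and the block, 85 with a filter of 5 CPM, 11 to 58 when a single library was left out, and 5013, 4593, 4861 and 4338 with the block without pair 1, 2, 3 or 4. Of 108 tested genes in the related lists, 3 were called unpaired, 72 with the block, 70 with voom and the block, 0 to 3 without single libraries and 69, 63, 67 and 65 with the block without pair 1, 2, 3 or 4. Changes turned sign when libraries or pairs were left out for Cxcr4 (-0.14 to 0.52), Sdc3 (-0.0787 to 0.22), Sdc4 (-0.11 to 0.0414), Ackr3 (-0.10 to 0.18), Sdc1 (-0.0161 to 0.21), Podxl (-0.17 to 0.69), Pecam1 (-0.0504 to 0.56), Smoc2 (-0.0133 to 0.80), Vwf (-0.21 to 0.43; with the block, -0.000328 without pair 1) and the Sdc4 to Sdc3 ratio (-0.30 to 0.0865); the cause was not tested. The ratio of Vcam1 to Cd34 ranged from 0.60 to 1.36. No rescaling or pseudocount tried turned the sign of a named gene. At these depths Calcr and Chrdl2, at a few reads, could not be compared.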
